A study of Caenorhabditis elegans with 12 samples.

Results

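The *pals* genes of *C. elegans* encode proteins that share the ALS2CR12 signature, a family that has expanded in this worm and that is best known from the intracellular pathogen response. This transcriptional response is set off in the intestine and other tissues by microsporidia, by the Orsay virus and by some kinds of proteotoxic stress. The family holds both targets and regulators of the response. PALS-22 holds it off and PALS-25, encoded next to it, turns it on, while PALS-17 is a second repressor and PALS-16 and PALS-20 act on the activating side. The members were taken by name, as each gene whose symbol starts with pals-, which gave 36 of the 19089 genes listed. The rule uses no measured value.

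RNA was sequenced from pools of whole CL2006 worms, in which the *unc-54* promoter drives human Aβ in the body wall muscles. ABPS worms were fed bacteria producing double-stranded RNA against Aβ and received the 5MER peptide, AB0S worms were fed the same bacteria and received M9 buffer, EVPS worms were fed bacteria with the empty vector (EV) and received the peptide, and EV0S worms were fed the EV bacteria and received buffer. All worms carried the transgene, were grown at 20 °C as the second generation on their bacteria, were treated daily from the first day of adulthood and were harvested at day 6 of adulthood. Each group had 3 repeats, 12 libraries in all. No group was infected with a pathogen. The labels give the genotype of both EV groups as WT, although the strain is CL2006 throughout.

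The deposited values are counts per gene that the authors scaled between libraries and then corrected for the 3 repeats. They are called normalized values here. They sum to between 24082800 and 29142800 per library, which are not depths, and the depth is unknown. EV0S repeat 3 stands apart from its group. On the first principal component (54.5% of the variance of 15516 genes) EV0S repeat 3 scored 25.05, on the side of the AB0S libraries, while EV0S repeats 1 and 2 scored -36.8 and -33.9. Its summed values of the 32 major sperm protein (*msp*) genes were 6473, against 17052.5 and 17528 in the other EV0S libraries, 10393 to 15366 in EVPS, 6233 to 17469.7 in ABPS and 4749 to 5330.5 in AB0S. Its summed values of 4 body wall muscle markers were 68122, against 121160 and 118033 in the other EV0S libraries. The largest part of these sums was *unc-54*, at 43596 against 81501 and 79388. *myo-3* and *unc-15* were also lower in EV0S repeat 3, while *hlh-1* was higher, at 176 against 99.6 and 109. Summed values of the 5 measured intestine markers were 13594 in EV0S repeat 3, against 24162 and 24068 in the other EV0S libraries. Of these markers *elt-2* was not lower, at 383 against 377 and 358. No measured marker of the intestine, epidermis, muscle, oocyte or embryo was at 0 in any library, with 5 of 6 intestine markers and 6 of 7 early embryo markers measured. No *msp* gene was at or below 0 in all 12 libraries. Results that rest on EV0S are therefore followed by their values from a fit of the other 11 libraries, without EV0S repeat 3. The ABPS libraries were also spread on the first principal component, with scores of -3.97, 26.3 and -24.2 in repeats 1, 2 and 3. ABPS repeat 2 thus also lay on the side of the AB0S libraries. Results that rest on ABPS are given from all 12 libraries, with only some values without single ABPS libraries.

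Most *pals* genes lie in a few groups of neighbours. Of the 36 members, 12 lie within 58.6 kb of chromosome I (positions 13083321 to 13141898, WBcel235), among them *pals-5* and *pals-6*. Chromosome III holds *pals-24*, *pals-23*, *pals-22* and *pals-25* side by side within 17.5 kb (120435 to 137975), a group of 6 with *pals-20*, *pals-17*, *pals-16*, *pals-19* and *pals-18* (1376945 to 1406263), and *pals-26*, *pals-27* and *pals-28* (4375154 to 4387757). A further 4 neighbours, *pals-36* to *pals-39*, lie on chromosome V (12434361 to 12446995). *pals-36* is annotated as a pseudogene and the other 35 members as protein coding. The exons of 12 members overlap those of another gene. Whether the reads were counted by strand is not stated, so the values of *pals-20*, *pals-32* and *pals-37*, which overlap a gene on the opposite strand by 502, 195 and 925 bp, are uncertain. The same holds for *pals-3*, whose exons share 1185 bp with *pals-12* on the same strand. *pals-12*, *pals-15* and *pals-21* were not analysed here.

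The members differed far more from each other than between groups. Per kilobase of exon, the mean normalized value over the 12 libraries was highest for *pals-24* (356) and *pals-23* (281), followed by *pals-25* (115), *pals-17* (108) and *pals-22* (102). It was 14.4 per kb for *pals-5*, the gene most used as a reporter of the response, and lowest for *pals-7* (1.33) and *pals-13* (0.604). Without scaling to length, 5 members averaged above 100, 22 between 10 and 100, and 9 below 10. For a single gene, the highest library was 1.33 times the lowest for *pals-25* and 28.9 times for *pals-10*, whose lowest values were close to 0.

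**Figure D1:**
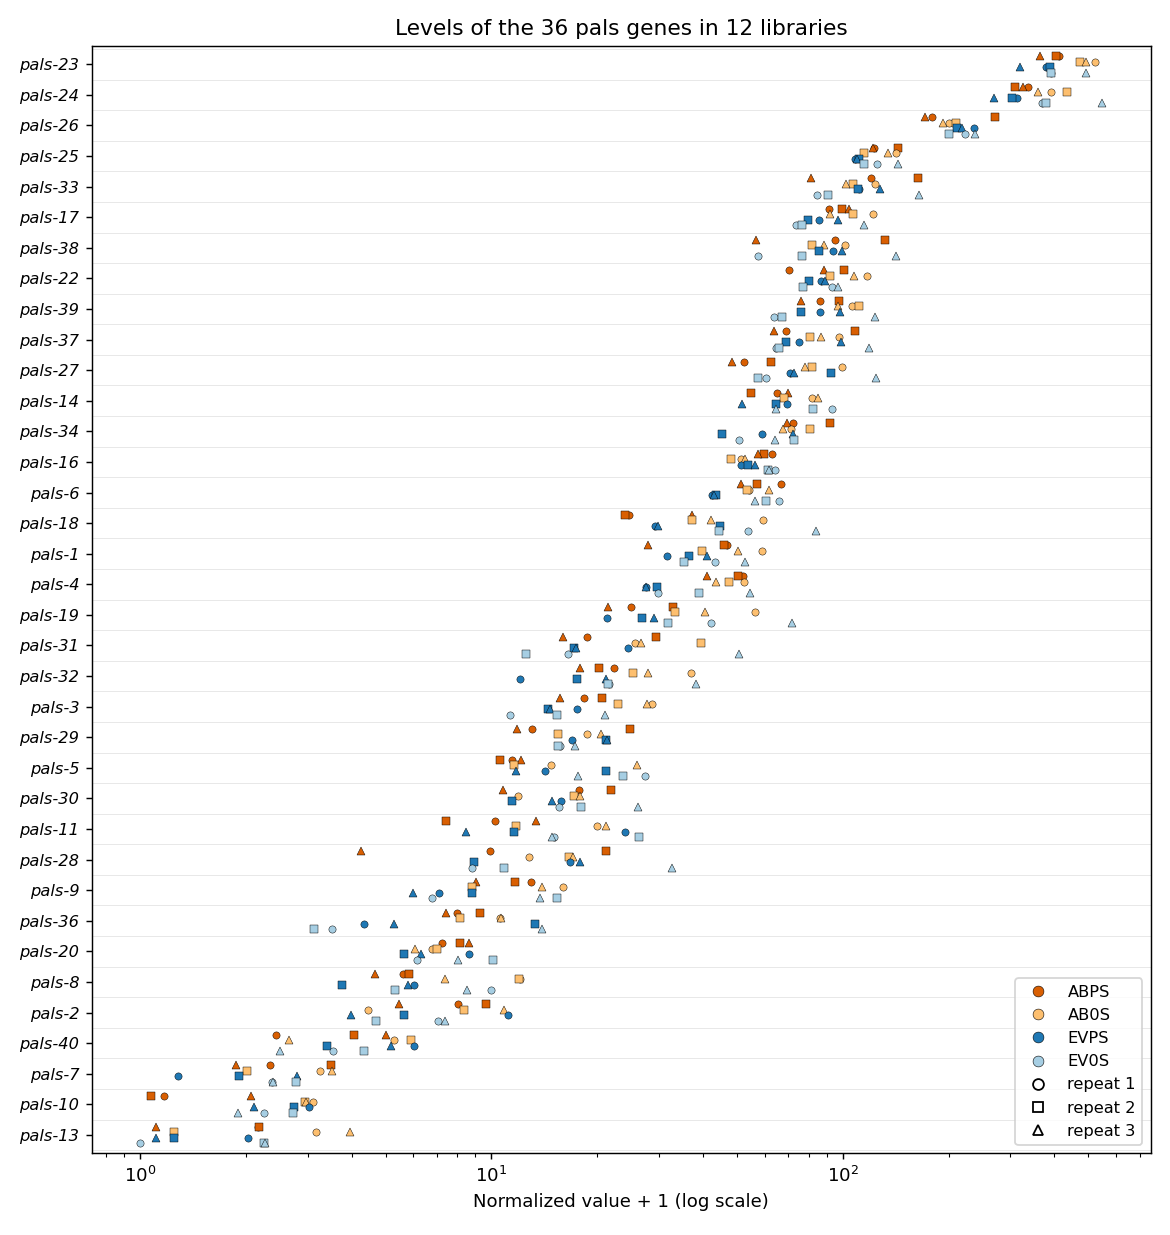
Normalized values of the 36 *pals* genes in each library, plotted as the value plus 1 on a log axis (values below 0 at 0) and ordered by mean. Colours mark the 4 groups and shapes the 3 repeats. The 4 groups overlap for most genes, and the pale triangle of EV0S repeat 3 lies at the right in many rows, as for *pals-24* (547), *pals-27* (124) and *pals-31* (49.8).

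The antagonists *pals-22* and *pals-25* showed no difference between groups that passed the test. *pals-22* had 85.5, 79.3 and 88.2 in EVPS and 92.3, 75.9 and 96.0 in EV0S, and it had 69.4, 99.8 and 87.3 in ABPS and 116, 91.1 and 107 in AB0S. The ranges of the groups overlap in both peptide comparisons. *pals-25* had 107, 110.3 and 109 in EVPS and 124, 114 and 142 in EV0S, so that the 3 EVPS libraries lay below the 3 EV0S libraries by a small margin. It had 121, 142 and 121 in ABPS and 141, 114 and 134 in AB0S, which overlap. The log2 difference of *pals-25* was -0.21 (SE 0.14, limma adjusted p = 0.457) in EVPS against EV0S and -0.01 (limma adjusted p = 0.976) in ABPS against AB0S. In EVPS against EV0S without EV0S repeat 3 it was -0.12 for *pals-25* and -0.01 for *pals-22* (limma adjusted p = 0.669 and 0.975).

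The second set of regulators lies together in the other group on chromosome III. *pals-17* had 84.3, 78.8 and 95.7 in EVPS and 72.7, 75.6 and 114 in EV0S, and it had 90.3, 98.3 and 103 in ABPS and 121, 105.9 and 90.7 in AB0S. *pals-20* was low throughout, at 5.87 ± 1.57 in EVPS and 7.09 ± 1.99 in EV0S, and 7.01 ± 0.706 in ABPS and 5.60 ± 0.474 in AB0S (mean ± SD, n = 3). For neither gene did the EVPS values lie apart from the 3 EV0S values. The EVPS values of *pals-17* all lay above those of EV0S when EV0S repeat 3 was left out, with a log2 difference of 0.21 (limma adjusted p = 0.516). *pals-16* was the steadiest member in this set. It had 50.3, 52.7 and 55.3 in EVPS, all below the 63.2, 60.1 and 60.5 of EV0S, but 62.0, 58.7 and 56.2 in ABPS, all above the 50.3, 47.1 and 51.6 of AB0S. The difference between these peptide effects on *pals-16*, that on EV bacteria minus that under Aβ RNAi, was -0.46 on the log2 scale and did not pass (SE 0.21, limma adjusted p = 0.294). It was -0.47 without EV0S repeat 3 (limma adjusted p = 0.194).

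*pals-5* values were low and spread within groups. They were 13.2, 20.2 and 10.7 in EVPS, against 26.3, 22.7 and 16.7 in EV0S, and 10.4, 9.60 and 11.1 in ABPS, against 13.8, 10.6 and 24.9 in AB0S. The log2 differences were -0.56 (SE 0.37, limma adjusted p = 0.457) in EVPS against EV0S and -0.53 (SE 0.37, limma adjusted p = 0.484) in ABPS against AB0S. The difference of *pals-5* in EVPS against EV0S was -0.80 without EV0S repeat 3, its lowest EV0S library (limma adjusted p = 0.247).

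With the peptide at high Aβ, EVPS against EV0S, 1 *pals* gene fell and none rose. limma, fitted to log2(value + 1) of all genes with group and repeat in the model, called 7.33% of the 19089 genes in this comparison at a Benjamini-Hochberg adjusted p below 0.1, 1.82% as lower and 5.51% as higher. *pals-24* had 311, 303 and 269 in EVPS, against 367, 377 and 547 in EV0S. The 3 EVPS values lie below the 3 EV0S values, and the highest is that of EV0S repeat 3. The log2 difference was -0.52 (SE 0.15), a fold of 0.695, with a limma adjusted p of 0.0938. Without EV0S repeat 3 it was -0.30 (limma adjusted p = 0.0934, in a fit that called 13.8% of all genes and 7.18% as lower). Leaving out any one of EV0S repeats 1 and 2 and EVPS repeats 1 to 3 gave log2 differences from -0.65 to -0.42 and ended the call (limma adjusted p = 0.104 to 0.311), in fits that called 0 of 19089 genes, or 684 without EVPS repeat 3. Fitting only the 6 libraries of these groups gave -0.52 with an adjusted p of 0.261 and 0 called genes. In the same comparison limma called 4 of 7 oocyte markers as higher (summed values of 192994 to 210140 in EVPS, against 141619 to 187092 in EV0S). It called 1 of 6 early embryo markers as higher, *pie-1*, with 2 of 6 above 0. *pie-1*, with means of 3192 in EVPS and 2696 in EV0S, makes up most of the early embryo sums (3302 to 3505 in EVPS, against 2769 to 3191 in EV0S). The means of *pes-10*, *end-1*, *end-3* and *tbx-38* were lower in EVPS, at 120 against 152 for *pes-10* and 5.48 against 12.4 for *end-1*. limma also called 2 of 4 epidermis markers as lower, *dpy-7* and *wrt-2* (list sums of 3111 to 3293 in EVPS, against 3036 to 3555 in EV0S). The epidermis marker *nhr-23*, the largest part of these sums, was at 1820 to 2052 in EVPS, against 1352 to 1593 in EV0S. The log2 difference was below 0 for 5 of 5 intestine markers (57.6% of all genes), with a median of -0.18, and 0 of them were called. When EV0S repeat 3 was left out, 4 of 5 intestine, 3 of 4 muscle, 1 of 4 epidermis and 3 of 32 *msp* genes were called lower, and 4 of 7 oocyte and 1 of 6 early embryo markers higher. The part of these tissues in the result was not tested. In pools of whole worms, fewer cells of a type and less RNA per cell cannot be told apart.

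At an unadjusted p below 0.05, which 19.4% of all genes reached and 8.00% as lower, 4 members were lower and none higher in EVPS. They were *pals-24*, *pals-6*, *pals-18* and *pals-19*. *pals-6* had 41.5, 42.6 and 41.9 in EVPS, against 64.9, 59.4 and 55.2 in EV0S. These groups do not overlap, and EV0S repeat 3 is here the lowest of its group. The log2 difference of *pals-6* was -0.50 (SE 0.17, limma adjusted p = 0.140), and without EV0S repeat 3 it was -0.54 (limma adjusted p = 0.117). *pals-19* had 20.4, 25.9 and 28.0 in EVPS, against 41.1, 30.8 and 70.7 in EV0S, and its neighbour *pals-18*, which shares 53 bp of exon with it, had 28.3, 43.7 and 28.9 in EVPS, against 52.7, 43.4 and 82.8 in EV0S. Their log2 differences of -0.84 and -0.78 did not pass (limma adjusted p = 0.201 and 0.200). They were -0.49 for *pals-19* and -0.54 for *pals-18* without EV0S repeat 3, the highest library for both, with unadjusted p of 0.146 and 0.119 (limma adjusted p = 0.372 and 0.331). In that fit 3 members were lower at an unadjusted p below 0.05 (13.2% of all genes), *pals-24*, *pals-14* and *pals-6*, and 3 were higher (11.3% of all genes), *pals-27*, *pals-36* and *pals-39*.

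Over the whole family, the log2 difference was below 0 for 23 of 36 members (63.9%, against 57.6% of all genes), with a median of -0.21 (-0.05 over all genes) and a range from -0.84 for *pals-19* to 0.49 for *pals-40*. For 8 members all EVPS libraries lay below all EV0S libraries (12.4% of all genes), *pals-4*, *pals-6*, *pals-16*, *pals-19*, *pals-23*, *pals-24*, *pals-25* and *pals-32*, and for none above (14.9% of all genes). The median without EV0S repeat 3 was -0.06 over the members and -0.05 over all genes, with 21 of 36 members below 0 (55.6% of all genes). The EVPS libraries then lay below both EV0S libraries for 10 members (27.0% of all genes) and above both for 9 (21.0% of all genes).

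**Figure D2:**
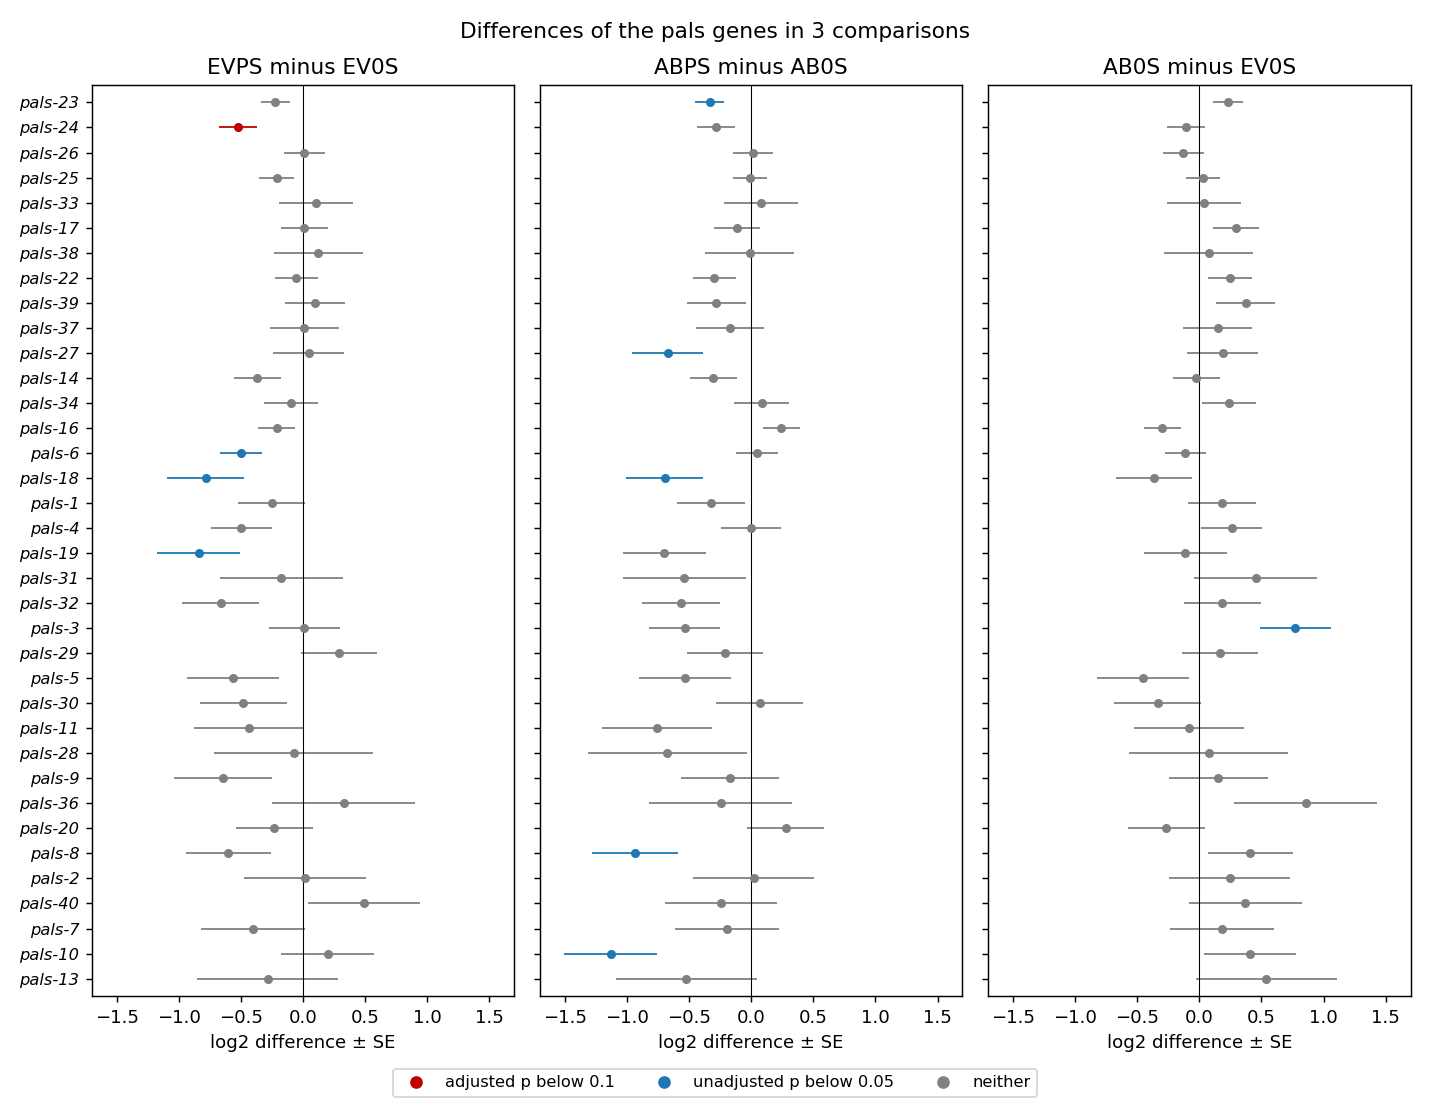
Differences of the 36 *pals* genes on the log2(value + 1) scale, with standard errors from limma (12 libraries), in EVPS against EV0S, ABPS against AB0S and AB0S against EV0S. A single gene, *pals-24* at -0.52 in the first panel, passes an adjusted p of 0.1, and points in the first 2 panels lie mostly to the left of 0, 23 and 28 of 36.

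Under Aβ RNAi, ABPS against AB0S, no *pals* gene passed the test, and neither did any other gene (0% of 19089, smallest limma adjusted p among the members 0.279). At an unadjusted p below 0.05, which 15.9% of all genes reached, 6.53% as lower and 9.36% as higher, 5 members were lower and none higher, *pals-8*, *pals-10*, *pals-18*, *pals-23* and *pals-27*. *pals-23* had 410.1, 402 and 364 in ABPS, against 519.6, 473 and 492 in AB0S. The groups do not overlap, and the log2 difference was -0.34 (SE 0.12, limma adjusted p = 0.279). *pals-27* had 51.2, 61.3 and 47.2 in ABPS, against 98.6, 80.9 and 77.2 in AB0S, a log2 difference of -0.67 (SE 0.29, limma adjusted p = 0.302). When the libraries of ABPS and AB0S were fitted alone, *pals-23* and *pals-27* were called, among 2427 of all genes. *pals-8* and *pals-10* also had all ABPS values below all AB0S values, but at low levels, 4.36 ± 0.607 against 9.47 ± 2.68 and 0.436 ± 0.546 against 2.008 ± 0.0874 (mean ± SD, n = 3).

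The direction in this comparison was below 0 for 28 of 36 members (53.3% of all genes), with a median of -0.26 (-0.02 over all genes). For 9 members the ABPS libraries all lay below the AB0S libraries (14.5% of all genes), and for *pals-16* and *pals-20* they all lay above (14.9% of all genes). The median was -0.40 without ABPS repeat 2, with 33 of 36 members below 0, and -0.04 without ABPS repeat 3, with 18. limma called 720 of 19089 genes and 0 members without ABPS repeat 2, and 0 genes without ABPS repeat 3. These 2 libraries differ in the markers as well, with summed *msp* values of 6233 in repeat 2 and 17469.7 in repeat 3. The part of the germline markers in the *pals* values was not tested.

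The peptide comparisons at high and at low Aβ share no library. The difference was below 0 in both for 18 of 36 members (30.6% of all genes), and for 16 without EV0S repeat 3 (23.5% of all genes). In all 6 same-numbered pairs the value was lower with the peptide for 7 members (5.60% of all genes), *pals-5*, *pals-8*, *pals-14*, *pals-19*, *pals-23*, *pals-24* and *pals-32*. With the pair of EV0S repeat 3 left out, 7 members were lower in the 5 remaining pairs (6.30% of all genes), the same genes. Of these, *pals-5* and *pals-14* were not high in EV0S repeat 3. *pals-14* had 68.3, 63.7 and 50.5 in EVPS, against 92.0, 81.5 and 63.7 in EV0S, and 64.0, 53.9 and 69.0 in ABPS, against 80.7, 67.2 and 83.8 in AB0S. The EVPS and EV0S ranges overlap, as do those of ABPS and AB0S, and neither difference passed (log2 differences of -0.37 and -0.31, limma adjusted p = 0.323 and 0.426). *pals-14* was at -0.52 in EVPS against EV0S without EV0S repeat 3, its lowest EV0S library (limma adjusted p = 0.132). For *pals-16* and *pals-10* the sign of the peptide difference was the same in the 3 pairs of a comparison and opposite between the comparisons (8.70% of all genes). Without the pair of EV0S repeat 3 this held for 5 members (26.4% of all genes), *pals-27*, *pals-31* and *pals-39* being the others.

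When the difference of the 2 peptide effects was itself tested, 0 of 36 members passed (limma, 2.98% of all genes), with 2 at an unadjusted p below 0.05 (18.1% of all genes). They were *pals-10* (1.33, SE 0.53, limma adjusted p = 0.233) and *pals-6* (-0.54, SE 0.24, limma adjusted p = 0.268). The value for *pals-10*, whose levels are near 0, depends on the added constant and was 2.79 with 0.1 and 0.45 with 5 in place of 1 (limma adjusted p = 0.233 and 0.272). *pals-6* was low in EVPS only, at 42.0 ± 0.567, against 59.9 ± 4.90 in EV0S, 57.4 ± 7.76 in ABPS and 55.3 ± 4.45 in AB0S (mean ± SD, n = 3). Without EV0S repeat 3, *pals-10* was at 1.15 and *pals-6* at -0.59 (limma adjusted p = 0.229 and 0.142), 5 members were at an unadjusted p below 0.05 (32.1% of all genes), and *pals-27* (1.15, limma adjusted p = 0.0139) and *pals-39* (0.70, limma adjusted p = 0.0686) passed, in a fit that called 25.7% of all genes and 10.3% as higher. For *pals-27* this library held 124, against 59.5 and 56.2 in the other EV0S libraries.

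**Figure D3:**
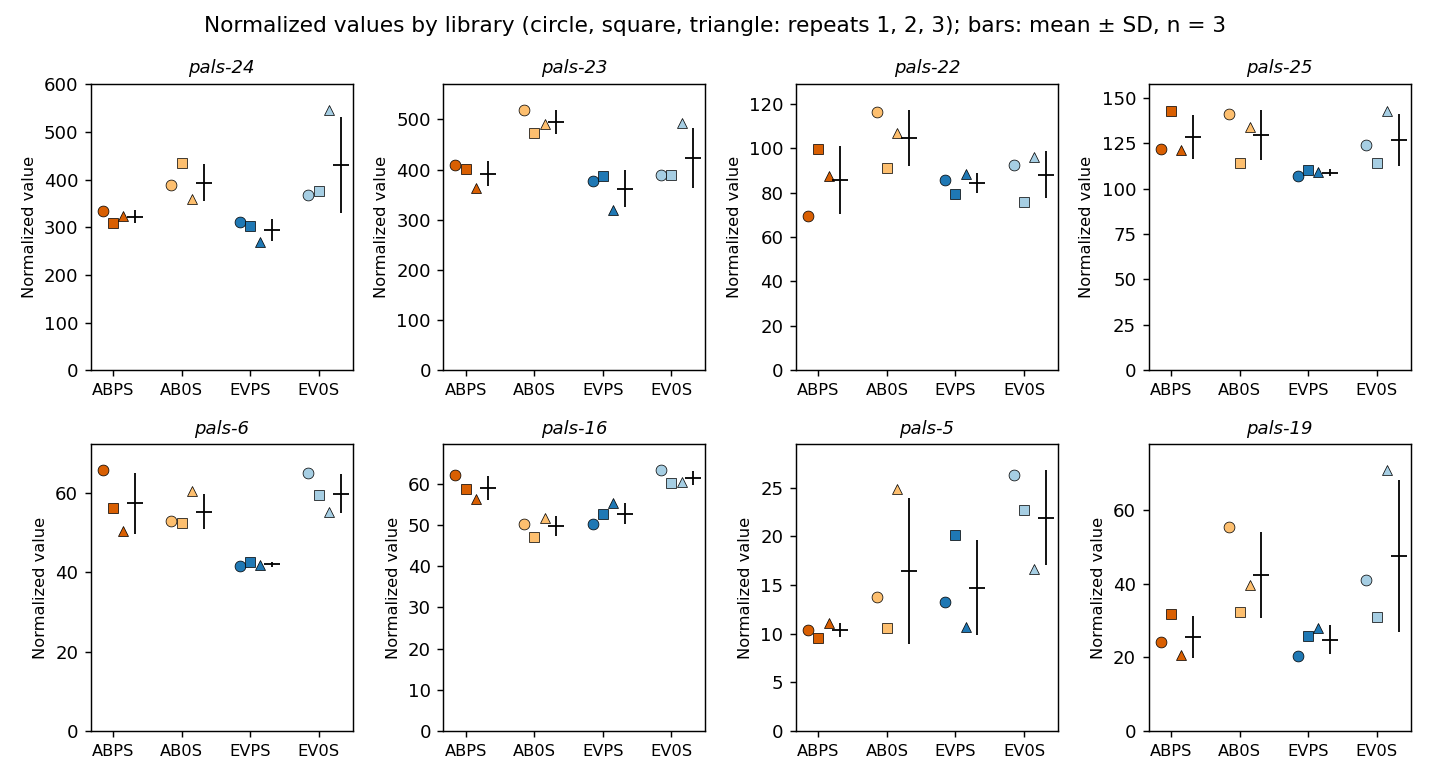
Normalized values of 8 *pals* genes by library, with the mean and SD of each group (n = 3) at its right. *pals-24* is lower in EVPS than in EV0S and lower in ABPS than in AB0S. The second of these differences did not pass (log2 difference -0.29, limma adjusted p = 0.37). *pals-6* is low in EVPS (42.0 ± 0.567), and *pals-16* is lower in EVPS than in EV0S and higher in ABPS than in AB0S.

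Aβ RNAi without the peptide, AB0S against EV0S, gave 0 called members, where limma called 11.1% of all genes, and 1 member at an unadjusted p below 0.05 (22.5% of all genes). That gene was *pals-3*, with 27.6, 21.9 and 26.8 in AB0S, against 10.3, 14.4 and 20.1 in EV0S. The groups do not overlap, and the log2 difference was 0.77 (SE 0.29, limma adjusted p = 0.148). All 3 AB0S libraries lay above the EV0S libraries for *pals-3* and *pals-10* (12.9% of all genes) and below them for *pals-16* (14.1% of all genes). The difference was above 0 for 25 of 36 members (55.0% of all genes), with a median of 0.17 (0.03 over all genes). Without EV0S repeat 3 it was above 0 for 27 (54.4% of all genes), and the AB0S libraries lay above both EV0S libraries for 14 members (29.1% of all genes) and below both for *pals-16* alone (27.1% of all genes).

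The count of calls in the family moved most here when EV0S repeat 3 was left out. Without it, 8 members were called, all higher in AB0S, in a fit that called 34.2% of all genes and 15.2% as higher. They were *pals-36* (1.61), *pals-31* (1.18), *pals-3* (1.03), *pals-39* (0.70), *pals-27* (0.62), *pals-4* (0.55), *pals-17* (0.50) and *pals-23* (0.39), on the log2 scale with limma adjusted p from 0.00972 to 0.0904. The median over the members was then 0.33. Without AB0S repeat 1, which was the highest AB0S library in the summed *pals* values, the median over the members was 0.01. *pals-36* had 9.61, 7.12 and 9.62 in AB0S, against 2.53, 2.13 and 13.0 in EV0S, and *pals-31* had 24.6, 38.6 and 25.7 in AB0S, against 15.5, 11.5 and 49.8 in EV0S. For both genes the third EV0S library exceeds every AB0S library. In AB0S against EV0S, limma also called 15 of 32 *msp* genes as lower, 1 of 4 muscle markers as lower and 1 of 6 early embryo markers as higher (6 of 6 above 0, median 0.36). Without EV0S repeat 3 it called 31 of 32 *msp* genes, 3 of 4 muscle markers and 4 of 5 intestine markers as lower, and 3 of 6 early embryo markers, 1 muscle and 1 epidermis marker as higher. The part of these tissues in the *pals* values was not tested. The EV0S libraries are shared with EVPS against EV0S.

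With the peptide in both groups, ABPS against EVPS, 0 members were called (0.272% of all genes) and 3 reached an unadjusted p below 0.05 (15.8% of all genes). *pals-4* had 51.1, 49.2 and 40.1 in ABPS, against 26.6, 28.7 and 26.5 in EVPS. The groups do not overlap, and the log2 difference of 0.75 did not pass (SE 0.24, limma adjusted p = 0.217). *pals-6* had a log2 difference of 0.43 (limma adjusted p = 0.266) and *pals-10* one of -0.92 (limma adjusted p = 0.279), which was -2.15 and -0.29 with constants of 0.1 and 5. The ABPS libraries all lay above the EVPS libraries for 5 members (16.2% of all genes), *pals-4*, *pals-6*, *pals-9*, *pals-16* and *pals-25*, and below them for *pals-10* and *pals-27* (15.1% of all genes). The difference was above 0 for 24 of 36 members (50.4% of all genes), with a median of 0.10 (0.0031 over all genes) that lay between -0.08 without ABPS repeat 2 and 0.27 without ABPS repeat 3.

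The libraries of a group differed among themselves as well. EV0S repeat 3 held the highest value of all 12 libraries for 14 of 36 members, 38.9% of the family, where it did so for 18.9% of all genes. Within EV0S it was the highest for 24 of 36 members (66.7%, against 42.6% of all genes). Its log2 value exceeded the mean of the other EV0S libraries by a median of 0.43 over the members and of -0.0035 over all genes. Its normalized value was more than 1.5 times the mean of the other EV0S libraries for 16 members, a count that was not made over all genes. The largest ratios were 5.57 for *pals-36*, 3.68 for *pals-31*, 3.57 for *pals-28*, 2.14 for *pals-27* and 2.13 for *pals-38*. *pals-14*, *pals-16* and *pals-6* had ratios of 0.734, 0.981 and 0.887. ABPS repeat 2 was the highest ABPS library for 20 of 36 members (55.6%, against 42.5% of all genes).

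Summed over the 36 genes, the normalized values were 2130.1, 2088 and 2081 in EVPS, against 2185, 2179 and 3060.2 in EV0S, and 2184, 2482 and 1988 in ABPS, against 2704, 2484 and 2484 in AB0S. In these sums the EVPS libraries lie below the EV0S libraries and the ABPS libraries below the AB0S libraries, in places by a small amount, but *pals-23*, *pals-24* and *pals-26* make up 42.4% of the summed level. Over the other members the sums were 1207, 1187 and 1276 in EVPS, against 1206 and 1214 in EV0S repeats 1 and 2 and 1783 in repeat 3, and 1261, 1501 and 1130.0 in ABPS, against 1596, 1368 and 1442 in AB0S. Without those 3 genes the groups overlap in both comparisons. Group means were 2099.7 ± 26.6 in EVPS and 2475 ± 507 in EV0S, and 2218 ± 249 in ABPS and 2558 ± 127 in AB0S (SD, n = 3).

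**Figure D4:**
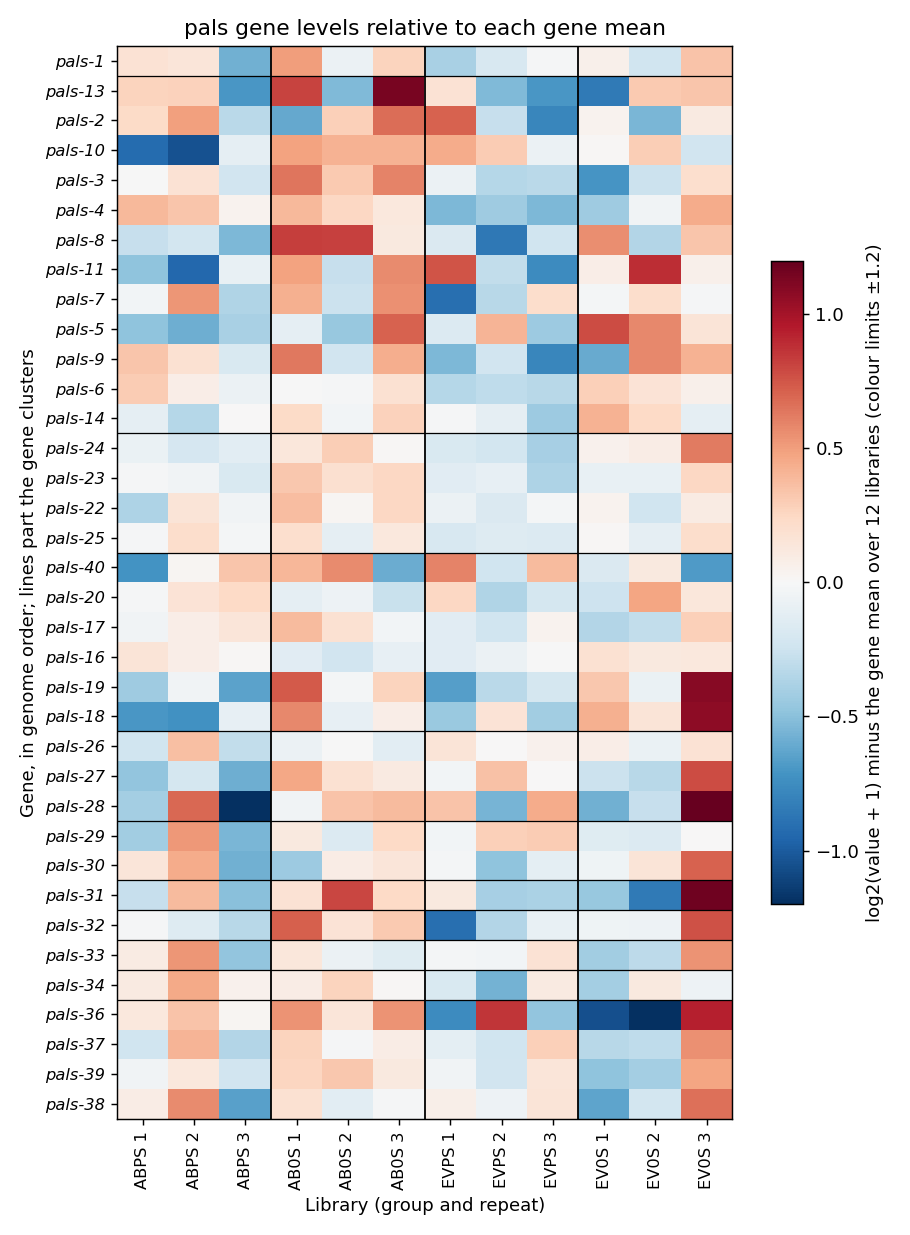
Levels of the *pals* genes relative to each gene's mean over 12 libraries, as log2(value + 1), with libraries in columns by group and repeat and genes in genome order (horizontal lines part groups of neighbours, colours stop at ±1.2). The column of EV0S repeat 3 is the highest of its group for 24 of 36 genes, the ABPS repeat 2 column is the highest of its own for 20 of 36, and the chromosome I neighbours in the EV0S repeat 3 column are split between high and low.

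Neighbouring genes did not all follow one pattern. Of all genes, the difference was below 0 for 57.6% in EVPS against EV0S and for 53.3% in ABPS against AB0S. In the group of 4 around *pals-22*, the difference was below 0 for all 4 in EVPS against EV0S (median -0.22, or -0.09 without EV0S repeat 3) and for all 4 in ABPS against AB0S (median -0.29). In the 12 genes on chromosome I it was below 0 for 9 in EVPS against EV0S (median -0.42, or -0.44 without EV0S repeat 3) and for 10 in ABPS against AB0S (median -0.41). The 4 neighbours on chromosome V, *pals-36* to *pals-39*, were above 0 in all 4 cases in EVPS against EV0S (median 0.11, or 0.50 without EV0S repeat 3) and below 0 in all 4 in ABPS against AB0S (median -0.21). In the group of 6 with *pals-16*, 4 were below 0 in each peptide comparison (medians -0.22 and -0.18). Of *pals-26* to *pals-28*, 1 was below 0 in EVPS against EV0S (median 0.01, or 0.47 without EV0S repeat 3) and 2 in ABPS against AB0S (median -0.67). Of *pals-29* and *pals-30*, 1 was below 0 in each. Neighbours share their libraries and can share reads, so they are not independent of each other.

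Genes of the response outside the family did not pass in any comparison when all 12 libraries were fitted. This list held 11 genes, all measured, among them the cullin *cul-6*, the Skp1-related *skr-3*, *skr-4* and *skr-5* and the RING gene *rcs-1*, which form ubiquitin ligases with the F-box genes *fbxa-75* and *fbxa-158*. limma called 0 of 11 in each of the 5 comparisons. Of all genes it called 7.33% in EVPS against EV0S, 0% in ABPS against AB0S and 11.1% in AB0S against EV0S. It called 2.98% for the difference of the peptide effects and 0.272% in ABPS against EVPS. The smallest limma adjusted p among the 11 was 0.427 in EVPS against EV0S, 0.418 in ABPS against AB0S and 0.135 in AB0S against EV0S. At an unadjusted p below 0.05 there was 1 gene in all, *rcs-1* in AB0S against EV0S (22.5% of all genes). It had 429.6, 412 and 443 in AB0S, against 526, 534 and 454 in EV0S. The difference was below 0 for 9 of 11 in EVPS against EV0S (57.6% of all genes), with a median of -0.14 (-0.05 over all genes). In ABPS against AB0S it was below 0 for 7 of 11 (53.3% of all genes), with a median of -0.30 (-0.02 over all genes). Without EV0S repeat 3 it was below 0 for 7 of 11 in EVPS against EV0S (55.6% of all genes), with a median of -0.23 (-0.05 over all genes). There 0 of 11 were called (13.8% of all genes) and 3 were at an unadjusted p below 0.05 (24.5% of all genes). That fit called *rcs-1* as lower (-0.32) and *skr-5* and *fbxa-158* as higher (0.82 and 0.61) in AB0S against EV0S (limma adjusted p = 0.0127, 0.0381 and 0.0938), where it called 34.2% of all genes. It called *skr-4* and *rcs-1* (-0.41 and -0.31) in the difference of the peptide effects (limma adjusted p = 0.0306 and 0.0644), where it called 25.7% of all genes. *cul-6* had 218, 205 and 197 in EVPS, against 203, 214 and 266 in EV0S, and these ranges overlap. F26F2.1, which like *pals-5* is induced in the response, had 21.1, 15.5 and 13.1 in EVPS, against 15.9, 26.9 and 19.3 in EV0S.

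The 4 regulators outside the family also gave 0 calls with limma in each comparison, where it called 0% to 11.1% of all genes. An unadjusted p below 0.05 was reached by 1 of them, in EVPS against EV0S (19.4% of all genes). That was *drh-1*, a RIG-I-like receptor that triggers the response to viral RNA, which had 2812, 2769 and 2794.5 in EVPS, against 2633, 2527 and 2171 in EV0S, a log2 difference of 0.20 (limma adjusted p = 0.165). The groups do not overlap, and EV0S repeat 3, the lowest, leaves a difference of 0.11 when left out (limma adjusted p = 0.265). *zip-1*, a bZIP transcription factor that acts downstream in the response, averaged 421 ± 11.8 in EVPS and 417 ± 13.8 in EV0S (SD, n = 3). *pnp-1* and *sta-1*, which hold the response off, had log2 differences of -0.17 and -0.25 in EVPS against EV0S (limma adjusted p = 0.388 and 0.381). Without EV0S repeat 3, *pnp-1* was called lower there (-0.27, limma adjusted p = 0.0845, 13.8% of all genes called), and *sta-1* was at -0.15 (limma adjusted p = 0.579). In that fit *pnp-1* also passed in the difference of the peptide effects (-0.32, limma adjusted p = 0.0812, 25.7% of all genes called).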

How the data were processed

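Poly(A)-selected stranded libraries of the 12 pools were sequenced as single-end reads. Per the labels and the study's methods, the authors used fastx_toolkit and cutadapt 2.10 for trimming, TopHat 2.1.1 for alignment to WBcel235, htseq-count 2.01 for gene counts and DESeq2 1.36.0 for their normalization. The authors deposited the normalized counts after correcting them for the 3 repeats, by a method not given in the sources used here. They are linear and not whole, and 307 of 229068 are below 0, of which 1 of the 432 values of *pals* genes. Count models were therefore not used, and 0 columns of values were left unused.

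Negative values were taken as 0. The fit was made on log2(value + 1) by limma 3.58.1 under R 4.3.3 (eBayes with a trend), with group and repeat as terms for the 12 libraries. On this scale the changes of low genes are understated. P-values were adjusted over 19089 genes and called below 0.1, the study's threshold. The 5 comparisons were the peptide on each kind of bacteria, the difference of these effects, and Aβ RNAi with and without the peptide. A permutation test of 1 gene over 3 and 3 libraries, if exact, has 0.1 as its smallest p. The procedure was run on simulated data with independent noise for each gene and library. These held no repeat effect and no library apart from its group, so they cannot show how EV0S repeat 3 moves the calls.

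The repeat numbers pair libraries because the study corrects for its repeats. Deviations from group means correlated at -0.18 on average between libraries of the same number (-0.61 to 0.077) and at 0.092 between others, over 15516 genes with a mean of at least 10, where genes are not independent replicates and the deposited correction lowers the first value by itself. Positions and exon lengths come from an Ensembl annotation of WBcel235, which placed 36 of 36 members by gene ID. Neighbours are genes less than 50000 bp apart.

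The members and all gene lists were chosen with earlier results of these data known. The rule for named genes took *pals-22*, *pals-25*, *pals-5*, *pals-16*, *pals-17* and *pals-20*, the 6 members with the highest mean, every member called, and the 3 in each direction with the smallest p in each comparison, 21 genes in all. Other members named were chosen after their values were seen. Lists of response genes, regulators outside the family, *chil* genes and cell type markers were described by counts. Alternatives were pseudocounts of 0.1 and 5, a mean of at least 1 or 10, no replicate block, only the libraries compared, median-of-ratios or quantile rescaling, eBayes without the trend, an adjusted p below 0.05, and each library left out.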

Additional observations from a re-analysis of the deposited data

How the results depend on the processing

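The count of called *pals* genes in EVPS against EV0S was 1 (7.33% of all genes), and it was 2 with no replicate block (*pals-24* and *pals-6*, adjusted p = 0.0391 and 0.062, 13.0% of all genes). It was 0 with only the libraries compared and without the trend, where 0 of all genes were called, 0 with quantile normalization (3.17% of all genes), 0 at an adjusted p below 0.05 (4 of all genes), and 0 to 1 with each library left out. In ABPS against AB0S it was 2 with only the libraries compared (12.7% of all genes), against 0 in the fit of all libraries, and 0 to 0 with each library left out. In AB0S against EV0S it was 1 with no replicate block (*pals-3*, 17.7% of all genes), 1 with quantile normalization (*pals-3*, 5.76%), 1 without the trend (*pals-16*, 5.40%) and 0 to 8 with each library left out. In ABPS against EVPS it was 1 with no replicate block (*pals-4*, 4.82% of all genes), and for the difference of the peptide effects 0 to 2 with each library left out. The causes of these changes were not tested. Dropping the block changed no other call. The median over the members ranged, with each library left out, from -0.30 to -0.06 in EVPS against EV0S, from -0.40 to -0.04 in ABPS against AB0S, from 0.01 to 0.33 in AB0S against EV0S, from -0.08 to 0.27 in ABPS against EVPS and from -0.17 to 0.23 for the difference of the peptide effects. Quantile normalization gave -0.04 in EVPS against EV0S, with 20 of 36 members below 0.

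Of 1184 refits of single named genes, 1107 kept direction and side of the threshold, 9 lost and 10 gained a call, and 58 changed sign, none of them called. Quantile normalization gave 0.11 for *pals-22* in EVPS against EV0S, -0.020 for *pals-22* and -0.053 for *pals-33* in ABPS against EVPS, and 0.12 for *pals-5* and 0.16 for *pals-26* in the difference of the peptide effects, where median-of-ratios rescaling gave 0.0017 for *pals-26*. With each library left out, values crossed 0 in EVPS against EV0S for *pals-17* (-0.12 to 0.21), *pals-26* (-0.13 to 0.12), *pals-33* (-0.10 to 0.49) and *pals-36* (-0.31 to 1.08). In ABPS against AB0S they did for *pals-17* (-0.33 to 0.046), *pals-25* (-0.14 to 0.072), *pals-26* (-0.22 to 0.14), *pals-33* (-0.22 to 0.45) and *pals-34* (-0.037 to 0.20). In AB0S against EV0S they did for *pals-24* (-0.23 to 0.12), *pals-25* (-0.052 to 0.12) and *pals-33* (-0.17 to 0.42), and in ABPS against EVPS for *pals-22* (-0.19 to 0.19) and *pals-33* (-0.29 to 0.38). For the difference of the peptide effects they did for *pals-5* (-0.47 to 0.29), *pals-17* (-0.038 to 0.34), *pals-26* (-0.14 to 0.23) and *pals-33* (-0.34 to 0.41). The depth of the libraries is unknown, so no limit from depth can be given.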

Other observations

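The chitinase-like *chil* genes belong to the response of the epidermis to oomycetes and not to the intracellular pathogen response. The 27 taken here are the listed genes whose symbol starts with chil-. With all 12 libraries, limma called 0 of them in each of the 5 comparisons, where it called 0% to 11.1% of all genes. At an unadjusted p below 0.05 there were 5 in ABPS against AB0S (18.5% of them, against 15.9% of all genes), *chil-8*, *chil-12* and *chil-13* higher and *chil-9* and *chil-27* lower, and the median over the 27 genes was 0.22 there (-0.02 over all genes), where that of the *pals* genes was -0.26. *chil-12* had 127, 124 and 119 in ABPS, against 91.8, 94.1 and 96.9 in AB0S, and *chil-13* had 167, 199 and 187 in ABPS, against 130.4, 141 and 140.2 in AB0S. Both pairs of groups are apart, with a limma adjusted p of 0.279 for each. *chil-9* and *chil-27*, at low levels, had log2 differences of -1.02 and -1.01 (limma adjusted p = 0.293 and 0.295). In ABPS against EVPS, 3 *chil* genes reached an unadjusted p below 0.05 (11.1% of them, against 15.8% of all genes). They were *chil-9* (log2 difference -1.40, limma adjusted p = 0.195), *chil-12* (0.57, limma adjusted p = 0.162) and *chil-13* (0.25, limma adjusted p = 0.299). In EVPS against EV0S, 15 of 27 *chil* genes were above 0 (42.4% of all genes), with a median of 0.05. Without EV0S repeat 3, 16 of 27 were above 0 (44.4% of all genes), with a median of 0.11. Without that library limma called 5 of 27 in AB0S against EV0S, 4 higher and 1 lower, where it called 34.2% of all genes. It called 2 of 27 in the difference of the peptide effects, *chil-9* and *chil-17*, where it called 25.7% of all genes.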
